A study of Homo sapiens with 8 samples.

Results

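The GATA2 regions around MYC on the long arm of human chromosome 8 were described in VCaP, an established cell line of castrate-resistant prostate cancer. GATA2 is a zinc-finger transcription factor that binds GATA motifs and, in prostate cells, occupies many enhancers that also bind the androgen receptor. Its binding was read out by ChIP-seq, the sequencing of DNA precipitated with an antibody, and the authors deposited a peak list for each precipitate. A region belonged to the set when a deposited peak had its summit on chromosome 8 from 1 Mb before to 1 Mb after the MYC span, and overlapping peaks of the 4 lists were merged into a region. This gave 43 of the 36122 regions of the genome, built from 10 peaks of JQ1 replicate 1, 38 of JQ1 replicate 2, 14 of untreated replicate 1 and 36 of untreated replicate 2. All groups were VCaP cells kept without steroids for 72 h. The JQ1 group received 1 µM JQ1, a blocker of the bromodomains of BET proteins, for the last 24 h, and the group titled as not treated received DMSO as the vehicle for the same time. Each group had 2 precipitates made with a single GATA2 antibody, and 4 input samples were not analysed here. Separate cultures are not named as the origin of the replicates, and VCaP is a single cell line, so any p-value below measures only the spread between these 4 lists. Peak lists do not measure expression, so that neither the cell type nor the level of MYC could be checked in them.

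MYC codes for a transcription factor that drives cell growth, ribosome production and division, and it is often overactive in prostate cancer. It sits in a stretch of chromosome band 8q24 with very few protein-coding genes and many long non-coding RNA genes, a stretch known for inherited prostate cancer risk and for enhancers that act on MYC over long distances in several tissues. BET proteins sit at such enhancers and at the MYC promoter, and loss of MYC transcription is a classic response to BET inhibitors in blood cancers. PVT1 is the long non-coding RNA gene next to MYC, host of several microRNAs. POU5F1B is a retrotransposed copy related to the stem cell factor gene POU5F1.

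The lists differed in length, from 4974 peaks in JQ1 replicate 1 and 6902 in untreated replicate 1 to 32404 in JQ1 replicate 2 and 27373 in untreated replicate 2. The absence of a region from a replicate 1 list is therefore weaker evidence than its absence from a replicate 2 list. The median peak stood on 20 to 37 reads over its summit, as recovered from the deposited fold enrichment and p-value.

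Most GATA2 regions of the window lay in the non-coding stretch on the PCAT1 side of MYC, and none lay inside MYC or POU5F1B. The share of all protein-coding genes without a region inside their span is not given here. The absence therefore does not set these genes apart. MYC (NCBI gene 4609) spans 127735434 to 127742951 on chromosome 8 in the build GRCh38, the same as hg38, and POU5F1B (NCBI gene 5462) spans 127413447 to 127417224. They were the 2 protein-coding genes among the 27 genes that the RefSeq table places in the window. Of the 43 regions, 28 lay on the PCAT1 side, toward lower coordinates, and 15 on the PVT1 side. Of the 7 regions present in all 4 lists, 6 lay on the PCAT1 side and 1 on the PVT1 side. Regions in all 4 lists made up 16.3% of the window (95% Wilson interval 8.12 to 30.0) and 8.96% of all regions of the genome. Such intervals, here and below, treat neighbouring regions as independent, so they are a description and not a test. A total of 21 regions lay inside the span of a gene of the table, all of them long non-coding RNA genes, and 22 lay between genes. Regions were 157 to 770 bp wide, with a median of 256 bp. Summits were placed closely from list to list: over the 32 regions in more than 1 list the highest and lowest summit of a region differed by a median of 19 bp.

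**Figure D1:**
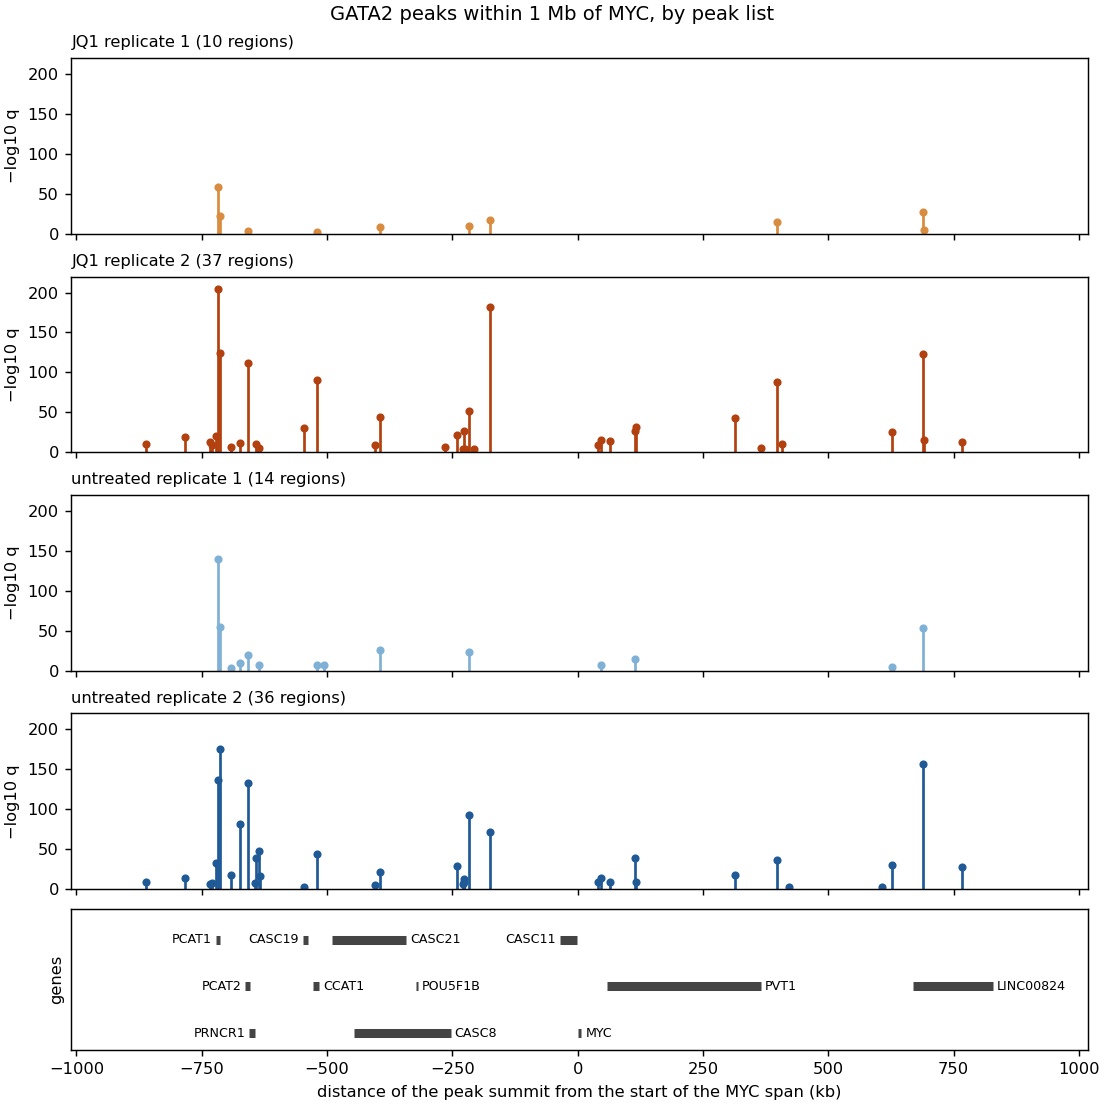
GATA2 peaks within 1 Mb of the MYC span in each peak list, with the 2 JQ1 lists above the 2 untreated lists; each stem is the strongest peak of a region, its height is the authors' −log10 q, and the bottom row draws gene spans. The tallest stems stand at PCAT1 and PCAT2 on the left, in the interval before MYC and at LINC00824 on the right, and no stem stands at MYC or POU5F1B.

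The strongest GATA2 peak of the window in 3 of the 4 lists stood at PCAT1, a long non-coding RNA gene named for its link to prostate cancer (NCBI gene 100750225, 127013154 to 127021014). The region at 127018575 to 127019038 lay inside PCAT1, 717 kb from MYC, and also inside the longer non-coding gene LOC105375751. Its −log10 q, the authors' adjusted significance, was 58.9 and 204 in JQ1 replicates 1 and 2, and 139 and 137 in untreated replicates 1 and 2. It was the first region of the window in both JQ1 lists and in untreated replicate 1, and the third in untreated replicate 2. The 4 summits lay within 15 bp of each other. By reads over the summit it was among the 5 highest peaks of the whole list each time, at place 4 and 5 in the JQ1 lists and at place 3 in both untreated lists. The reads numbered 117 (95% Poisson interval 96.8 to 140) and 217 (189 to 248) with JQ1, and 174 (149 to 202) and 281 (249 to 316) untreated. These intervals cover counting error only, and reads are not adjusted for the depth of a library.

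A second region of all 4 lists followed 3.88 kb further on, at 127022353 to 127022924, just outside the PCAT1 span. It reached a −log10 q of 22.2 and 125 with JQ1, and of 55.2 and 176 untreated, and it led the window in untreated replicate 2. Another, at 127076860 to 127077629, lay inside PCAT2, another non-coding gene of the same cluster, and had values of 4.03 and 112 with JQ1, and of 19.5 and 134 untreated. It was the widest region of the window. Of the 4 lists, JQ1 replicate 1 had the lowest value at each of these 3 regions. It also had the lowest median −log10 q over the whole list, at 8.20. The others had 12.1 in JQ1 replicate 2, and 9.55 and 13.3 untreated.

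Around this core lay 3 regions that both untreated lists and JQ1 replicate 2 held and JQ1 replicate 1 did not. The region 692 kb from MYC had a −log10 q of 7.28 in JQ1 replicate 2, and of 3.08 and 18.1 untreated. The region 673 kb away, near PCAT2, had 11.3 in JQ1 replicate 2, and 9.29 and 81.8 untreated. The region 635 kb away, beyond the non-coding gene PRNCR1, had 4.81 in JQ1 replicate 2, and 7.85 and 48.3 untreated. In the replicate 2 pair all 3 values were thus lower in the JQ1 list. The median −log10 q of that whole list was also lower, at 12.1 against 13.3 in untreated replicate 2. A region 39.8 kb from MYC with the same pattern went the other way, with 15.03 in JQ1 replicate 2 and 14.2 in untreated replicate 2. A region inside PRNCR1 itself, at 127090821 to 127091020, was in untreated replicate 2 alone, with a value of 8.43.

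Between PRNCR1 and MYC, 3 regions were in all 4 lists and 1 more was in both JQ1 lists. Regions per 100 kb numbered 3.95 up to the CCAT1 end, 1.52 from there to the CASC8 end and 3.16 from CASC8 to MYC, against 3.08 from the window start to the PRNCR1 end. The region at 127215170 to 127215624, inside CCAT1, a colon cancer-associated non-coding gene, was in all 4 lists with 2.83 and 90.9 in the JQ1 lists, and 7.73 and 44.3 in the untreated lists. The region at 127341619 to 127341970, inside the overlapping genes CASC21 and CASC8, was in all 4 lists with 8.0 and 43.6 with JQ1, and 26.4 and 21.8 untreated. By −log10 q both were lower with JQ1 in replicate 1 and higher with JQ1 in replicate 2. Their reads over the summit in replicate 2 went the other way. They were 96 with JQ1 and 107 untreated inside CCAT1, and 62 and 76 inside CASC21 and CASC8. The region at 127519126 to 127519638, between CASC8 and MYC, was in all 4 lists with 9.31 and 51.8 with JQ1, and 22.97 and 92.7 untreated, and it was lower with JQ1 in each replicate.

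The region of both JQ1 lists was also the one nearest to MYC on this side, at 127560414 to 127560772, 175 kb from the MYC span. It reached 17.3 and 182 with JQ1 and 72.1 in untreated replicate 2, and untreated replicate 1 had no peak there. In JQ1 replicate 2 it was the second region of the window and stood in the top 0.321% of the list, against the top 7.17% in untreated replicate 2. POU5F1B had no region within 50 kb in any list, while 62.6% of all protein-coding genes had at least 1. The nearest lay 53.1 kb away inside CASC8 and was in JQ1 replicate 2 alone, with a −log10 q of 6.69.

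MYC lay in the largest gap between neighbouring regions of the window. The summits of the region 175 kb before MYC and of the next region were 216 kb apart, and MYC and its neighbour CASC11 lay between them. The stretch from the last region of the window to its border was longer, at 242 kb. On the PVT1 side the first region stood 33.9 kb from the MYC span, at 127776655 to 127776937, with a −log10 q of 9.54 in JQ1 replicate 2 and 9.30 in untreated replicate 2. The next stood 39.8 kb away, between MYC and PVT1, and was in 3 lists with 15.03 in JQ1 replicate 2, and 7.67 and 14.2 untreated. These were the 2 regions within 50 kb of MYC, and neither was in JQ1 replicate 1.

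PVT1 (NCBI gene 5820, 127794524 to 128101256) held 4 regions, none of them in all 4 lists and none in JQ1 replicate 1. The strongest of the 4 differed between the replicate 2 lists. The region at 127849341 to 127849593 had 26.2 in JQ1 replicate 2, and 14.6 and 39.2 in the untreated lists. The region at 128048918 to 128049147, with its summit 0.118 kb from the microRNA gene MIR1207, had 43.3 in JQ1 replicate 2 and 17.9 in untreated replicate 2. Its reads over the summit went the other way, with 53 in JQ1 replicate 2 and 59 in untreated replicate 2. The other regions inside PVT1 were in both replicate 2 lists, with 13.8 and 31.8 in the JQ1 list, and 8.79 at each in the untreated list. Their reads were 23 and 51 in the JQ1 list, and 50 at each in the untreated list. From the MYC start to the PVT1 end, JQ1 replicate 1 had 0 peaks, JQ1 replicate 2 had 6, untreated replicate 1 had 2 and untreated replicate 2 had 6.

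Beyond PVT1 lay 9 regions over 642 kb, and the strongest stood inside the non-coding gene LINC00824. This region, at 128423701 to 128424065 and 681 kb from MYC, was in all 4 lists at 27.2 and 123 with JQ1, and 53.5 and 156 untreated, and was lower with JQ1 in each replicate. It ranked second in the window in JQ1 replicate 1 and untreated replicate 2. A region 391 kb from MYC, at 128133949 to 128134322, was like the one 175 kb before MYC in both JQ1 lists and in untreated replicate 2 but not in untreated replicate 1, and had 15.2 and 87.8 with JQ1 and 36.6 in untreated replicate 2. These 2 regions were the ones of the window with that pattern, which 3.68% of all regions had. A region 619 kb away had 25.8 in JQ1 replicate 2, and 4.81 and 31.0 untreated. Next to the strong LINC00824 region, a weak one at 128426969 to 128427268 was in both JQ1 lists, with 4.73 and 15.1, and in neither untreated list. Its 2 summits were 123 bp apart, the widest spread of any region of the window, and with summits required within 100 bp or a −log10 q of 5 or more it was no longer counted.

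**Figure D2:**
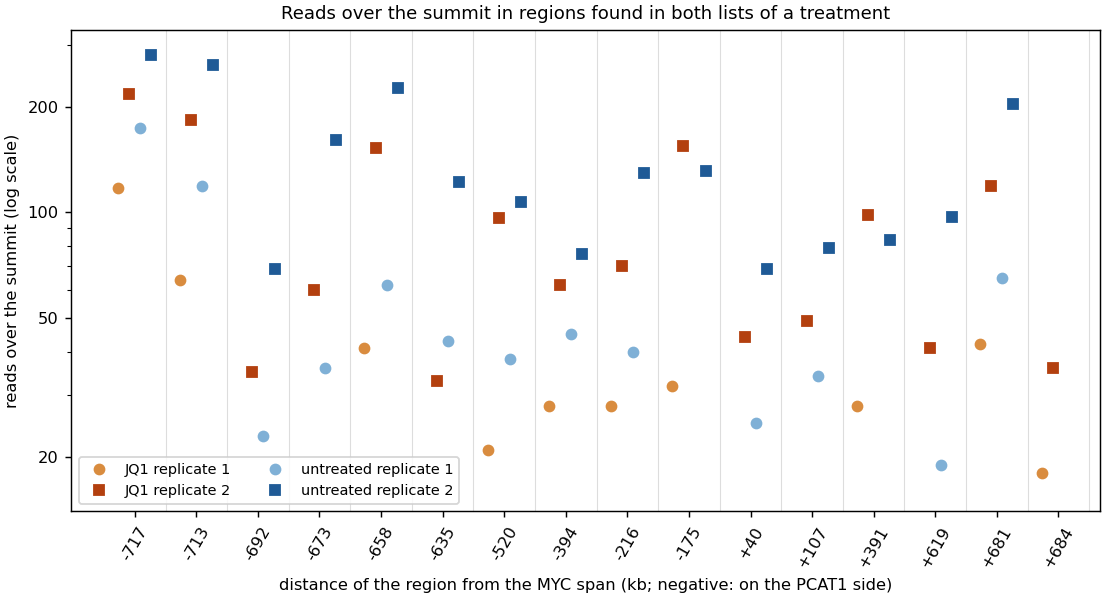
Reads over the summit (log scale, not adjusted for depth) in the 16 regions present in both lists of at least 1 treatment, placed by their distance from the MYC span; colours and symbols give the 4 lists, and a missing point means no peak. Untreated replicate 2 is highest in 13 of the 15 regions it holds, and JQ1 replicate 2 is higher than it at −175 and +391 kb.

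JQ1 and untreated lists held similar numbers of GATA2 peaks around MYC, closer than the replicates of a treatment were to each other. JQ1 lists held 24 ± 19.8 peaks in the window and untreated lists 25 ± 15.6 (SD, n = 2 each). On the log2 scale JQ1 over untreated was −0.20 (two-sided exact permutation p = 1, where the smallest possible p is 0.333). As a share of their list the window's peaks were 1.59 ± 0.592 per 1000 with JQ1 and 1.67 ± 0.504 per 1000 untreated (SD, n = 2 each). The log2 ratio of these shares was −0.09 (two-sided exact permutation p = 0.667), and it was 0.28 within 500 kb of MYC (exact permutation p = 0.333). The direction was thus not stable, and without replicate 1 the log2 ratio of peak numbers was 0.078.

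Every region found in both untreated lists was found again with JQ1. These were 13 regions, or 30.2% of the window (95% Wilson interval 18.6 to 45.1) against 17.6% over the genome. All 13 were in at least 1 JQ1 list (95% Wilson interval 77.2 to 100%), against 96.5% over the genome. Of the 13, 7 were in both JQ1 lists and 6 in JQ1 replicate 2 alone, a pattern of 8.0% of all regions. In the other direction, 10 regions were in both JQ1 lists, or 23.3% of the window (interval 13.2 to 37.7) against 13.1% over the genome. Of these, 9 were in at least 1 untreated list (90%, interval 59.6 to 98.2), against 97.1% over the genome, and the exception was the weak LINC00824 region. That region was the only JQ1-separated one, present in both JQ1 lists and neither untreated list, a pattern of 0.377% of all regions. The opposite pattern, both untreated lists and neither JQ1 list, had no region (0 of 43, with a Wilson interval up to 8.20%), against 0.62% over the genome. With the 4 lists cut to equal length, 8 regions were in both untreated lists, 75% of them were in a JQ1 list and 2 were in neither. No genome-wide share at equal length is given here, so these values cannot be set against the genome. Of the remaining regions, 16 were in both replicate 2 lists only (38.0% of all regions of the genome had that pattern), 5 in JQ1 replicate 2 only (25.9%), and 5 in untreated replicate 2 only (13.3%). No region was in JQ1 replicate 1 only (0.202%), and 1 was in untreated replicate 1 only (0.634%), 506 kb from MYC near CCAT1.

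Within a replicate, the reads over a summit could be set side by side where both lists had a peak. These ratios are for peaks called in both lists, 1 pair of libraries per replicate and no adjustment for depth, and they were not tested. Over the genome the median log2 ratio of JQ1 over untreated was −0.37 in replicate 1 (3271 regions) and −0.52 in replicate 2 (21173 regions). In replicate 1 all 7 shared regions of the window lay below that median, from −0.51 to −0.89. They were not extreme, since 12.4% to 37.7% of the genome's shared regions had a lower ratio. In replicate 2, 14 of 31 shared regions lay above the median and 17 below it. At the PCAT1 region the ratio was −0.57 in replicate 1 and −0.37 in replicate 2, which is 0.20 below and 0.15 above the genome's median.

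The lowest and the highest ratio of replicate 2 stood near each other on the PCAT1 side. The region 635 kb from MYC had 33 reads with JQ1 and 122 untreated, a log2 ratio of −1.89, and 0.179% of the shared regions of the genome had a lower one. The region 673 kb away had 60 and 161 reads, a ratio of −1.42. On the scale of these reads, the local background of the region 635 kb away was 11.1 with JQ1 and 12.4 untreated, and that of the region 673 kb away was 18.5 with JQ1 and 11.0 untreated. Its part in the ratios was not tested. For untreated replicate 2 these values undo a scaling by 0.686, a factor fitted to the deposited values of that list. Inside CASC19, 545 kb away, JQ1 had 63 reads and untreated 32, a ratio of 0.98, with 98.8% of the genome's regions lower. None of these 3 could be compared in replicate 1, where JQ1 had no peak at any of them and untreated had none inside CASC19. The regions 175 and 391 kb from MYC, on either side, had 154 and 98 reads with JQ1 against 131 and 83 untreated, ratios of 0.23 and 0.24.

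**Figure D3:**
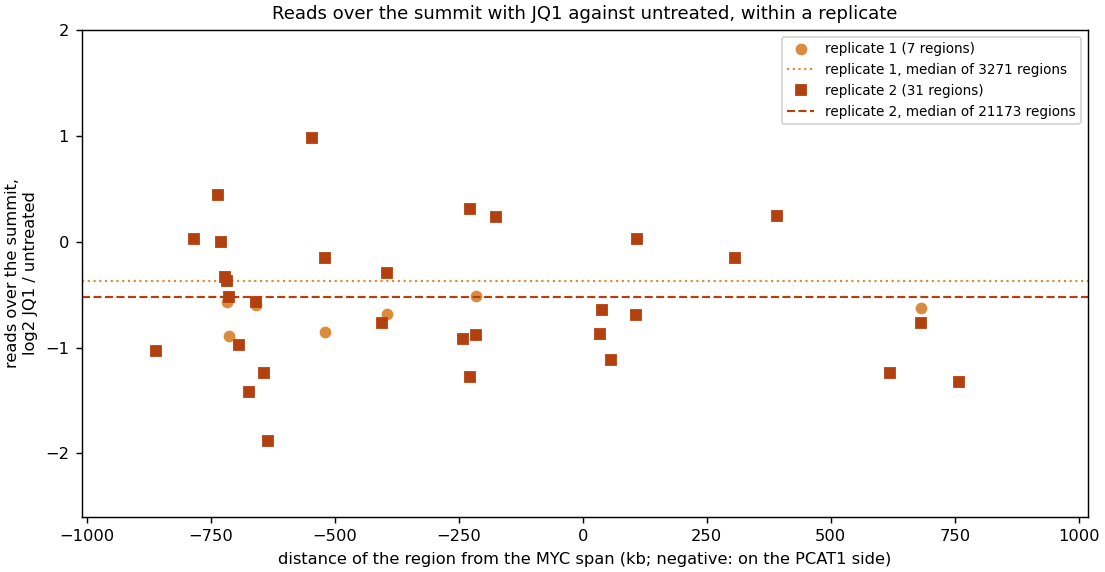
Log2 ratio of reads over the summit, JQ1 over untreated within a replicate, for the 7 regions of replicate 1 and the 31 of replicate 2 with a peak in both lists; lines give the median over all such regions of the genome, −0.37 in replicate 1 and −0.52 in replicate 2. All replicate 1 points lie below their line, and replicate 2 points lie on both sides of theirs, from −1.89 to 0.98.

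Peaks around MYC had more reads and a higher local background than the rest of their list, and a lower fold enrichment. The fold enrichment is the authors' ratio of reads over the summit to the local background. It was taken to have 1 added to each, with the reads of untreated replicate 2 scaled by a fitted 0.686. A high background thus lowers it at equal reads. Reads and background are known only at called peaks, and over a higher background a peak needs more reads to be called. The higher reads and the lower fold are therefore not separate findings from the higher background. The median peak of the window had 30 and 44.5 reads in the JQ1 lists against 20 and 24 over the whole lists, and 39 and 69.5 in the untreated lists against 22 and 37. The median fold in the window was 5.13 and 5.78 with JQ1 against 5.94 and 6.62 over the lists, and 4.69 and 5.84 untreated against 6.14 and 7.46. The median local background was 2.12 and 1.98 times that of the list with JQ1, and 2.14 and 3.27 times untreated. On chromosome 8 outside the window it was 1.41 and 1.33 times with JQ1, and 1.36 and 1.35 times untreated. All 4 lists thus had a higher background in the window. Its log2 ratio was 1.03 ± 0.0685 with JQ1 and 1.40 ± 0.430 untreated (SD, n = 2 each). Both untreated values lay above the JQ1 values, and the means differed by less than the SD of the untreated lists. Peaks with a fold of 10 or more were 10% and 26.3% of the window's peaks with JQ1, against 9.77% and 25.2% of the lists, and 14.3% and 25% untreated, against 13.7% and 32.2%.

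The background was higher from the window start to the CCAT1 end, which includes PCAT1, than beyond PVT1 in every list. From the window start to the PRNCR1 end, the median background was 5.93 and 3.99 times the list's with JQ1, and 3.73 and 3.29 times untreated. The peaks there numbered 3 and 10 with JQ1, and 5 and 11 untreated. From the PRNCR1 end to the CCAT1 end it was 2.54 and 3.5 times with JQ1, and 4.15 and 3.76 times untreated. These values rested on 1 and 4 peaks with JQ1, and on 2 and 5 untreated. Beyond PVT1 it was 1.36 and 1.46 times with JQ1 (3 and 7 peaks), and 1.34 and 2.25 times untreated (2 and 6 peaks). In the 2 JQ1 lists and in untreated replicate 1 the ratio was at most 2.26 in the segments beyond the CCAT1 end that held a peak. In untreated replicate 2 it stood at 3.63 (2 peaks) and 3.29 (6 peaks) in the segments around CASC8 and around PVT1. The segments were chosen after seeing the data.

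**Figure D4:**
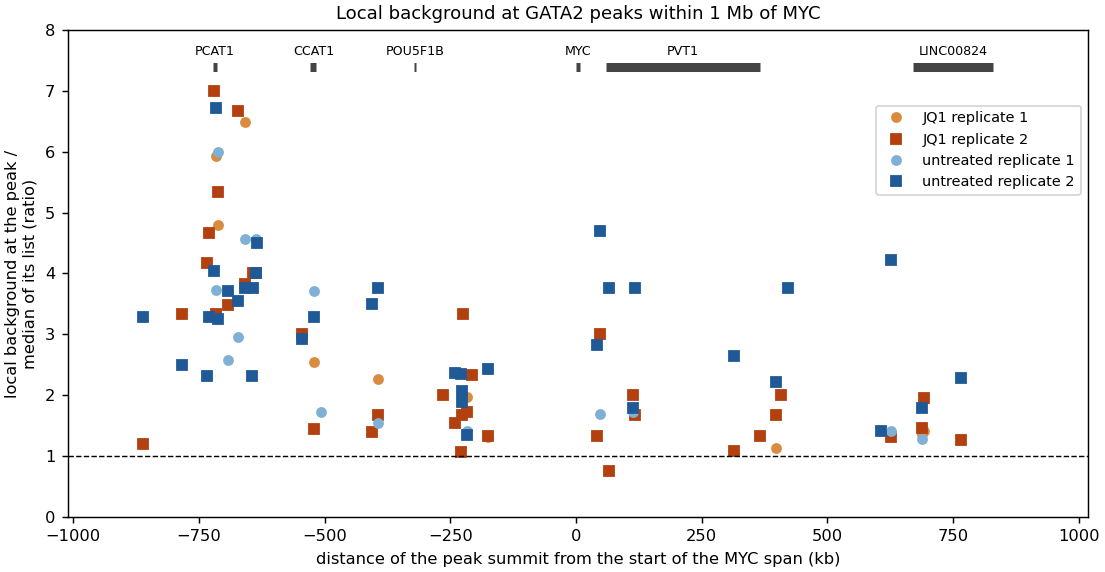
Local background at each GATA2 peak of the window, as a ratio to the median over the peaks of its list (dashed line at 1), by distance from the MYC start, with gene spans on top. Ratios reach about 7 around PCAT1 and lie mostly between 1 and 4 from CASC8 to LINC00824.

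At the PCAT1 region the order of a peak in its list depended on the measure. By −log10 q it stood at place 36 and 53 in the JQ1 lists and at place 5 and 395 in the untreated lists. By fold enrichment it stood at place 1231 and 1345 with JQ1 and at 186 and 5941 untreated. By reads it never stood below place 5, as given above. The PCAT2 region stood at place 4973 of 4974 by fold in JQ1 replicate 1 and at place 339 by reads. At the LINC00824 region, where the background was 1.27 to 1.79 times the list's median, the places were closer: 473 and 938 by fold and 310 and 390 by reads with JQ1, and 244 and 708 by fold and 215 and 161 by reads untreated.

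The window was rich in GATA2 regions when set beside windows of the same flank around every protein-coding gene. Its 43 regions compare with a median of 21 over the windows of 20037 genes, and 6.57% of the genes had more. Its 7 regions in all 4 lists compare with a median of 2, and 1.74% of the genes had more. The median local background of the window was exceeded by 5.85% and 1.55% of the gene windows with at least 10 peaks in the JQ1 lists, and by 8.80% and 0.740% in the untreated lists. Such windows numbered 633 and 16029 in the JQ1 lists, and 2125 and 14737 in the untreated lists. In JQ1 replicate 1 the MYC window itself held just 10 peaks. Neighbouring genes share most of their windows, so these shares are a description and not a test. At the borders, the nearest region left out stood 4.49 kb before the window start and was in untreated replicate 2 alone with a −log10 q of 10.4, and the first region inside had 10.6 in JQ1 replicate 2 and 9.68 in untreated replicate 2. At the other border the last region inside had 13.5 in JQ1 replicate 2 and 27.7 in untreated replicate 2, and the first one outside, 204 kb beyond that border, had 25.8 in JQ1 replicate 2 and 18.5 in untreated replicate 2.

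**Figure D5:**
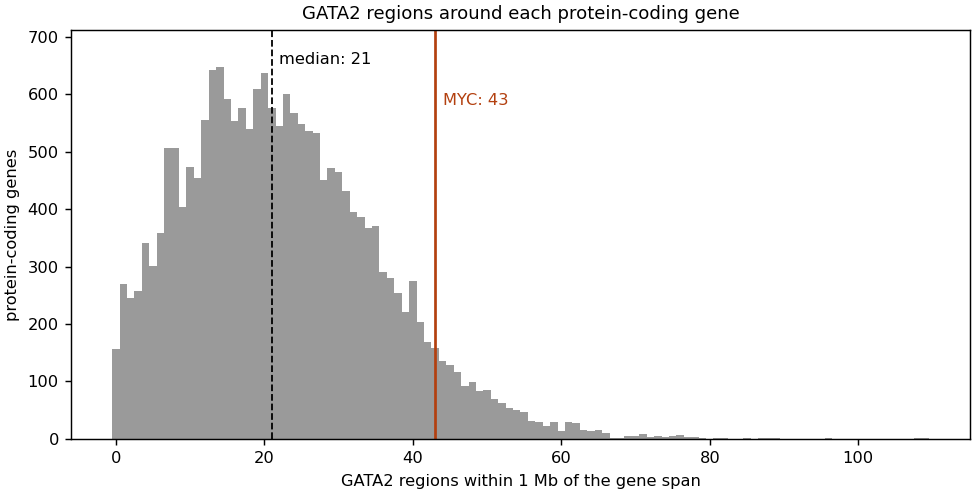
Number of GATA2 regions within 1 Mb of the span of each of 20037 protein-coding genes (grey bars, genes per number of regions). The dashed line marks the median of 21 regions and the solid line the 43 regions around MYC, which 6.57% of the genes exceed.

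Genes of the MYC network had a GATA2 region of all 4 lists nearby at close to the share of all protein-coding genes. The list held 30 genes, among them the MYC paralogues, the MAX dimerisation partners, cofactors and classic targets. Of these, 4 had a region in all 4 lists within 50 kb (13.3%, against 13.6% of all protein-coding genes). Within 10 kb, 2 had one (6.67%, against 7.65%). A region in both lists of a treatment stood within 50 kb of 4 members with JQ1 (13.3%, against 17.8% of all genes) and of 10 untreated (33.3%, against 24.3%). By list, 4 and 20 members had a region with JQ1 (18.2% and 58.2% of all genes), and 10 and 21 untreated (25.7% and 54.6%). MLXIPL, which codes for the glucose-sensing partner of MLX, held a region inside its span at a −log10 q of 10.2 and 52.6 with JQ1, and 22.1 and 49.5 untreated. RIOX2, a ribosomal oxygenase gene known as a MYC target, held one with 18.3 and 66.1 with JQ1, and 14.4 and 65.8 untreated. CAD, a pyrimidine synthesis gene, had one 49.2 kb away with 16.3 and 81.2 with JQ1, and 13.5 and 75.0 untreated. LDHA, the lactate dehydrogenase gene, had one 49.0 kb away with 9.65 and 19.6 with JQ1, and 5.47 and 10.3 untreated. MYC itself was among the 10 genes with an untreated region in both lists and not among the 4 with JQ1. That region was also in JQ1 replicate 2, at 15.03 against 14.2 in untreated replicate 2. It was missing from JQ1 replicate 1, the shortest list. The promoters of the 24 network genes with an entry in the RefSeq promoter table, from 250 bases before to 50 after the gene start, overlapped no GATA2 peak in any list. MYC had no such entry, so its promoter was not part of this check. Over the 15843 protein-coding genes with such an entry the share was 0.947%, so that 0 of 24 does not set the network apart.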

How the data were processed

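GATA2 ChIP-seq was analysed from 4 peak lists, 1 per precipitate (2 JQ1, 2 untreated). The submitters' processing notes name MACS2, Bowtie2 and Picard and the build hg38, with their versions not given in the sources used here. The fold enrichment is a linear ratio, and the −log10 p-value and −log10 q-value are those deposited by the authors. The deposited whole-number score was not used. The weakest q-values lie just under 0.05. Lines outside chromosomes 1 to 22, X and Y were left out (10 in JQ1 replicate 1, 8 in untreated replicate 2).

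Overlaps of at least 1 bp were merged, and coordinates are 1-based. Reads over a summit and local background were solved from fold and p-value as a Poisson tail, with the reads of untreated replicate 2 scaled by 0.686. The labels state neither the formula nor this factor, which was fitted to the deposited values of that list. The solution held for at least 99.996% of peaks in each list. Simulated data made with the same formula tested the solving only, and not whether the deposited values follow that formula. Genes came from RefSeq GRCh38.p14, without strand or exons. Where gene spans tied, both were named.

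Peak numbers were compared by exact permutation of the 4 lists, two-sided. Regions are not replicates, so other values are descriptions. The regions named are those in all 4 lists, in both lists of a treatment or in 1 treatment alone, the 5 strongest of each replicate 2 list and those nearest to MYC; the other regions named were picked after their values were seen. The members and gene lists were chosen with earlier results of these data known, and the read ratios, segments and gene windows for background were added after seeing the data. Python 3.11.15, scipy 1.17.1 and pandas 2.3.3 were used. Alternatives were other overlap rules, a −log10 q of 5 or more, lists of equal length, a 500 kb flank, left-out replicates and a replicate block.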

Additional observations from a re-analysis of the deposited data

How the results depend on the processing

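Of 55 alternative values, 3 turned their direction and 20 moved. The other 32 were log2 ratios of peaks that kept their sign, whatever their size, counts within 1.5 times, shares within the 95% Wilson interval and backgrounds within 1 SD. Within 500 kb of MYC, 4 regions were in both JQ1 lists, 4 in both untreated lists, 2 in all 4 lists and 0 were JQ1-separated, since the window is smaller by construction. There the log2 ratio of JQ1 over untreated was 0.16 for peaks and 0.28 for their share, against −0.20 and −0.09. With lists of equal length, 8 regions were in both untreated lists, 75% of them were in at least 1 JQ1 list, and 2 were untreated-separated. At a −log10 q of 5 or more, 1 region was untreated-separated and 0 were JQ1-separated, as were 0 with summits within 100 bp. No genome-wide share is given under these settings, so the counts cannot be set against the genome. Without replicate 1 or without replicate 2, 1 list per treatment was left, and counts ran from 10 to 37 for regions of JQ1, from 14 to 36 for regions of untreated, from 7 to 31 for regions in all lists left, from 3 to 6 for JQ1-separated and from 5 to 7 for untreated-separated regions. The share of untreated regions found with JQ1 ran from 50% to 86.1%, and the log2 ratio of peaks from −0.49 (without replicate 2) to 0.078 (without replicate 1). The local background was 1.22 on the log2 scale in the window and 0.45 on the rest of chromosome 8, and 2 members of the MYC network had a region within 10 kb. The cause of the moves other than by construction was not tested. With a replicate block the log2 ratios stayed at −0.20 (exact sign-flip p = 1) and −0.09 (exact sign-flip p = 0.5, the smallest 2 pairs can give). The labels do not say that replicate numbers pair the samples, and presence in replicate 1 less replicate 2 correlated at −0.0466 between treatments over the regions of the genome and at 0.193 over those of the window. Library depth is unknown, so a region missing from a short replicate 1 list says only that no peak was called there.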
